A study of Mus musculus with 4 samples.

Results

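The genes of the proteasome were followed on 4 one-color oligonucleotide arrays, 1 each for *Bcl11a*-/- MPPs, WT MPPs, *Bcl11a*-/- GMPs and WT GMPs. The set holds every gene whose symbol starts with Psma, Psmb, Psmc, Psmd, Psme, Psmf or Psmg and goes on with a number. It came to 50 genes on 56 probe sets with 1 annotated symbol, out of 19938 genes. The family was chosen by name after array values were known, among them the low signal of *Psmb3* in *Bcl11a*-/- MPPs, so all differences between the genotypes in MPPs are given as a description.

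The study asked which genes depend on the transcription factor Bcl11a in early blood progenitors. Fetal liver cells of *Bcl11a*-/- or WT fetuses were injected into B6.SJL mice that had received 1200 rad, and 4 weeks later donor-derived progenitors were sorted from the bone marrow (BM). The *Bcl11a*-/- donors lack the first exon of *Bcl11a* in every cell, and since such mice die before or around birth, the donor cells of all 4 conditions developed in irradiated hosts. MPPs, multipotent progenitors, were sorted as LSK cells (negative for lineage markers, positive for Sca-1 and c-Kit) that lacked CD150, and GMPs, granulocyte-macrophage progenitors, came from the same BM. Cells were pooled by donor genotype and each condition had 1 array, so no difference given here has a replicate, an error or a test. In RNA of a sorted pool, fewer cells that express a gene and less of its RNA per cell cannot be told apart.

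The proteasome is the protease that degrades proteins tagged with ubiquitin. Its core particle is a barrel of stacked rings, in which the outer rings of alpha subunits form the gate and the inner rings of beta subunits carry the cutting sites. A regulatory particle caps the barrel, and its ATPases unfold the substrate while its other subunits bind and remove ubiquitin. In immune cells the cutting subunits can be replaced by interferon-inducible ones, which makes the immunoproteasome and favors peptides that MHC class I molecules present.

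All values below are log2 signals as the authors deposited them, and a difference of 1 on this scale is 2-fold. Differences were taken only for the same gene between arrays. Signal levels of different genes were used in averages over lists, in filters and bins by signal, and in correlations. *Bcl11a* itself had signals of 8.64 in *Bcl11a*-/- MPPs and 9.89 in WT MPPs, and 7.77 in *Bcl11a*-/- GMPs and 8.60 in WT GMPs. Where its probes lie relative to the deleted exon was not known here. The 6 measured genes of an MPP list averaged 8.29 in *Bcl11a*-/- MPPs and 8.26 in WT MPPs, and 7.14 in *Bcl11a*-/- GMPs and 7.16 in WT GMPs. Within this list 1 gene, *Flt3*, was over 2-fold lower in *Bcl11a*-/- MPPs (-1.60), set beside 2.02% of all genes. The others were higher there, from 0.05 for *Meis1* to 0.93 for *Mecom*. The 10 genes of a GMP list averaged 8.26 in *Bcl11a*-/- MPPs and 9.21 in WT MPPs, and 10.46 in *Bcl11a*-/- GMPs and 10.54 in WT GMPs. The GMP genes were lower in MPPs than in GMPs in both genotypes. Of the 10, 4 were over 2-fold lower in *Bcl11a*-/- MPPs than in WT MPPs, set beside 2.02% of all genes. These were *Elane*, *Prtn3*, *Ctsg* and *Ms4a3*, with differences between -2.68 and -2.25. *Mpo* (-0.50) and *Csf1r* (-0.54) were lower by less. *Cebpe* (0.87), *Fcgr3* (0.47), *Csf3r* (0.26) and *Cebpa* (0.02) were higher in *Bcl11a*-/- MPPs. The 9 measured B lineage genes averaged 5.30 in *Bcl11a*-/- MPPs and 8.14 in WT MPPs, and 5.19 in *Bcl11a*-/- GMPs and 6.37 in WT GMPs. The 7 measured erythroid genes averaged 8.40 in *Bcl11a*-/- MPPs and 7.67 in WT MPPs, and 8.62 in *Bcl11a*-/- GMPs and 6.61 in WT GMPs. In MPPs 1 of them, *Hba-x* (3.17), was over 2-fold higher without Bcl11a, set beside 0.908% of all genes. The others ran from -0.25 for *Aqp1* to 0.57 for *Rhag*. In GMPs 6 of the 7 were over 2-fold higher, set beside 0.361% of all genes. The part of these cell type differences in the proteasome values was not tested.

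In MPPs, most of the proteasome genes were lower without Bcl11a. Of the 50 genes, 16 (32.0%) were over 2-fold lower in *Bcl11a*-/- MPPs than in WT MPPs, set beside 2.02% of all genes. None of the 50 was over 2-fold higher, set beside 0.908% of all genes. The difference was below 0 for 48 of the 50 genes and for 44.2% of all genes. Its median was -0.76 over the 50 genes and 0.05 over all genes. The genes *Psmd10* (-1.05) and *Psmb10* (-1.03) lay just past 2-fold, and *Psmb8* (-0.97) and *Psmg3* (-0.92) just short of it. At 3-fold, 6 genes remained past the threshold, *Psmb3*, *Psma4*, *Psmb4*, *Psmd13*, *Psma3* and *Psma5*, all but *Psmd13* of them subunits of the core.

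In GMPs, none of the 50 genes was over 2-fold lower or higher, set beside 0.281% of all genes lower and 0.361% higher. At these shares 50 genes would hold few or no such genes, so this count does not set the proteasome genes apart. The GMP differences ran between -0.45 for *Psma2* and 0.26 for *Psmd5*, with a median of -0.08 over the 50 genes and 0.01 over all genes. With the arrays quantile normalized anew, the median over the 50 was -0.02. They were below 0 for 32 of the 50 genes and 47.8% of all genes. For 46 of the 50 genes the size of the difference was larger in MPPs than in GMPs, set beside 61.3% of all genes, and the 4 others were *Psmc6*, *Psme4*, *Psmg4* and *Psmd5*. Of the 16 genes over 2-fold lower in *Bcl11a*-/- MPPs, 5 had a difference above 0 in GMPs, as did 38.3% of all genes that were over 2-fold lower in MPPs. The plot of all 50 genes by array shows the *Bcl11a*-/- MPP symbol standing apart to the left of the other symbols for most of them.

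**Figure D1:**
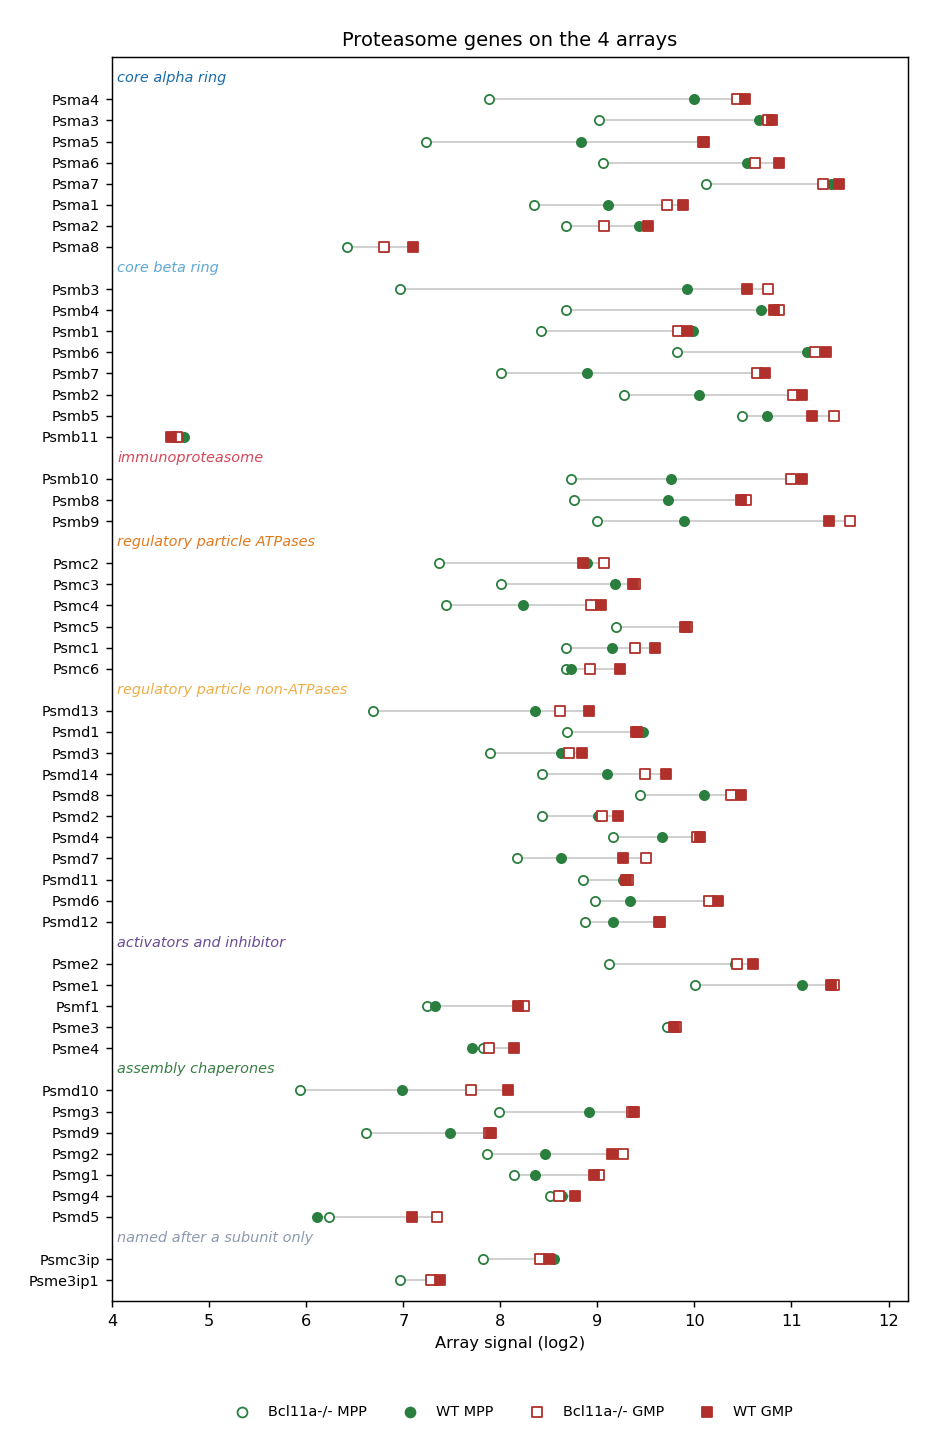
Log2 array signal (x axis) of each of the 50 proteasome genes (y axis, by part of the proteasome) on the arrays of *Bcl11a*-/- MPPs (open circles), WT MPPs (filled circles), *Bcl11a*-/- GMPs (open squares) and WT GMPs (filled squares), 1 array each, with a grey line over the range of a gene and symbols of equal value drawn over each other. The *Bcl11a*-/- MPP signal is the lowest of the 4 for 47 of the 50 genes.

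The parts of the proteasome did not share one difference. The core rings, without the immunoproteasome subunits, had the largest share of genes past 2-fold in MPPs, with 9 of 16 (56.3%) and a median of -1.32. The regulatory particle had 3 of 17 (17.6%) and a median of -0.67. The 3 immunoproteasome genes lay between -1.03 and -0.90. Among the activators and the inhibitor, 2 of 5 were past 2-fold while the median was -0.08, and among the assembly chaperones 1 of 7 was past 2-fold, with a median of -0.60. The difference between parts was not tested.

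**Figure D2:**
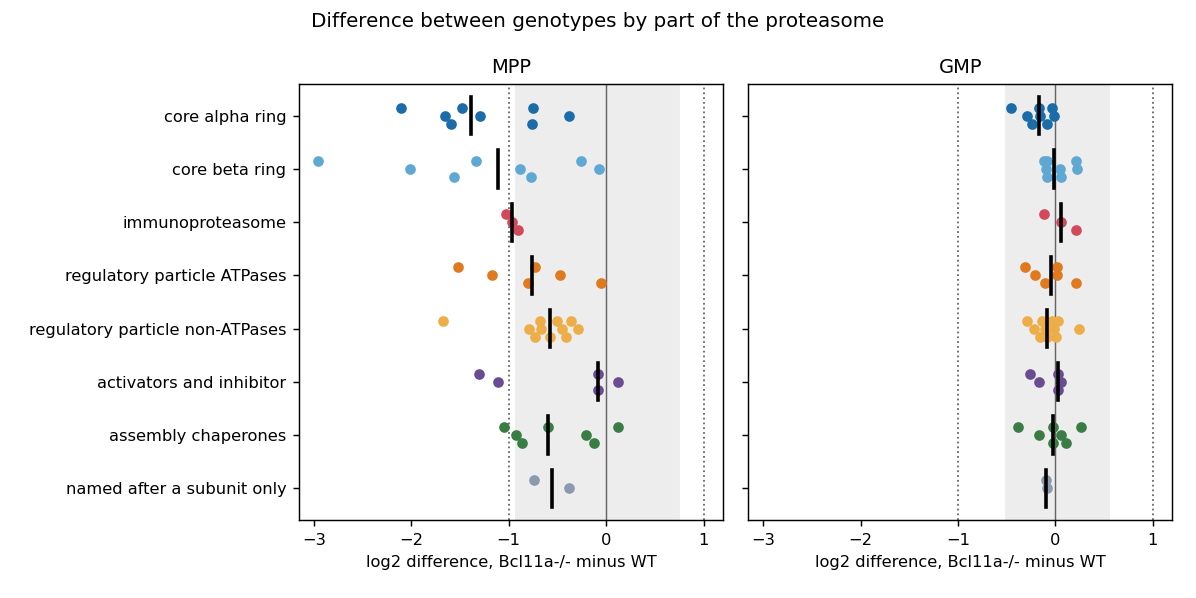
Log2 difference, *Bcl11a*-/- minus WT (x axis), of each proteasome gene (points) in MPPs (left) and GMPs (right) by part of the proteasome (y axis), with black bars for medians, dotted lines at 2-fold and a grey band over the central 95% of all genes (-0.92 to 0.75 in MPPs, -0.50 to 0.55 in GMPs). In MPPs 16 points lie past 2-fold lower, 9 of them in the core rings, set beside 2.02% of all genes, and in GMPs none does.

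The alpha ring genes were lower in *Bcl11a*-/- MPPs in all 8 cases, set beside 44.2% of all genes. By over 2-fold, 5 of them were lower, set beside 2.02% of all genes. *Psma4*, which encodes the alpha3 subunit whose tail closes the gate in yeast, had signals of 7.88 in *Bcl11a*-/- MPPs and 9.99 in WT MPPs, and 10.44 in *Bcl11a*-/- GMPs and 10.53 in WT GMPs. It was 4.31-fold lower in *Bcl11a*-/- MPPs than in WT MPPs, while the GMP arrays differed by -0.08. *Psma3* (alpha7) had signals of 9.02 in *Bcl11a*-/- MPPs and 10.67 in WT MPPs, and 10.76 in *Bcl11a*-/- GMPs and 10.80 in WT GMPs, and was 3.14-fold lower in *Bcl11a*-/- MPPs. For *Psma5* (alpha5) the signals were 7.23 in *Bcl11a*-/- MPPs and 8.83 in WT MPPs, and 10.08 in *Bcl11a*-/- GMPs and 10.10 in WT GMPs. Here WT MPPs already lay under both GMP arrays, and *Bcl11a*-/- MPPs lay a further 3.02-fold lower. *Psma6* (alpha1) had signals of 9.06 in *Bcl11a*-/- MPPs and 10.54 in WT MPPs, and 10.63 in *Bcl11a*-/- GMPs and 10.87 in WT GMPs, a 2.80-fold lower value in *Bcl11a*-/- MPPs. *Psma7* (alpha4) had signals of 10.11 in *Bcl11a*-/- MPPs and 11.41 in WT MPPs, and 11.33 in *Bcl11a*-/- GMPs and 11.49 in WT GMPs, and was 2.46-fold lower in *Bcl11a*-/- MPPs. In all 5 the *Bcl11a*-/- MPP array was the lowest of the 4, and the genotypes lay closer together in GMPs than in MPPs.

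The other 3 alpha genes were less than 2-fold lower. *Psma1* (alpha6) had signals of 8.35 in *Bcl11a*-/- MPPs and 9.11 in WT MPPs, and 9.72 in *Bcl11a*-/- GMPs and 9.88 in WT GMPs, with a difference of -0.76 in MPPs. *Psma2* (alpha2) had signals of 8.67 in *Bcl11a*-/- MPPs and 9.43 in WT MPPs, and 9.06 in *Bcl11a*-/- GMPs and 9.52 in WT GMPs. It differed by -0.75 in MPPs and by -0.45 in GMPs, the lowest GMP difference of the 50 genes. *Psma8*, a form of the alpha4 subunit made in testis, had signals of 6.42 in *Bcl11a*-/- MPPs and 6.80 in WT MPPs, and 6.80 in *Bcl11a*-/- GMPs and 7.10 in WT GMPs, and the smallest difference of the ring in MPPs (-0.38).

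The beta ring held both the largest and some of the smallest differences. *Psmb3*, the non-catalytic beta3 subunit, had signals of 6.97 in *Bcl11a*-/- MPPs and 9.92 in WT MPPs, and 10.75 in *Bcl11a*-/- GMPs and 10.54 in WT GMPs. It was 7.75-fold lower in *Bcl11a*-/- MPPs than in WT MPPs, the lowest difference among the 50 genes (-2.95), while it was 0.21 higher in *Bcl11a*-/- GMPs than in WT GMPs. *Psmb4*, the non-catalytic beta7 subunit, had signals of 8.67 in *Bcl11a*-/- MPPs and 10.68 in WT MPPs, and 10.87 in *Bcl11a*-/- GMPs and 10.82 in WT GMPs, and was 4.03-fold lower in *Bcl11a*-/- MPPs. *Psmb1*, the non-catalytic beta6 subunit, had signals of 8.42 in *Bcl11a*-/- MPPs and 9.98 in WT MPPs, and 9.83 in *Bcl11a*-/- GMPs and 9.93 in WT GMPs, and was 2.96-fold lower. For these 3 genes the gap between *Bcl11a*-/- MPPs and WT MPPs was wider than that between WT MPPs and either GMP array. *Psmb2*, the non-catalytic beta4 subunit, had signals of 9.27 in *Bcl11a*-/- MPPs and 10.05 in WT MPPs, and 11.02 in *Bcl11a*-/- GMPs and 11.11 in WT GMPs, a difference of -0.77 in MPPs. *Psmb11*, a catalytic subunit made in cortical cells of the thymus, hardly differed between arrays, with 4.66 in *Bcl11a*-/- MPPs and 4.74 in WT MPPs, and 4.67 in *Bcl11a*-/- GMPs and 4.61 in WT GMPs. All 4 signals lay under 5, the floor used among the alternatives, so its small differences do not show an expressed gene that stayed the same.

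The 3 catalytic subunits of the constitutive core differed from each other. *Psmb6* (beta1, the caspase-like site) had signals of 9.82 in *Bcl11a*-/- MPPs and 11.16 in WT MPPs, and 11.24 in *Bcl11a*-/- GMPs and 11.36 in WT GMPs, and was 2.52-fold lower in *Bcl11a*-/- MPPs. *Psmb7* (beta2, the trypsin-like site) had signals of 8.01 in *Bcl11a*-/- MPPs and 8.89 in WT MPPs, and 10.64 in *Bcl11a*-/- GMPs and 10.73 in WT GMPs, a difference of -0.88 between the MPP arrays. *Psmb5* (beta5, the chymotrypsin-like site and the target of bortezomib) had signals of 10.49 in *Bcl11a*-/- MPPs and 10.75 in WT MPPs, and 11.44 in *Bcl11a*-/- GMPs and 11.21 in WT GMPs. Its difference in MPPs was -0.26, next to -0.08 for *Psmb11* the smallest of the beta ring.

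The immunoproteasome subunits had nearly equal differences in MPPs. *Psmb10* (beta2i) had signals of 8.73 in *Bcl11a*-/- MPPs and 9.76 in WT MPPs, and 10.99 in *Bcl11a*-/- GMPs and 11.11 in WT GMPs, a 2.05-fold lower value in *Bcl11a*-/- MPPs. *Psmb8* (beta5i) had signals of 8.76 in *Bcl11a*-/- MPPs and 9.73 in WT MPPs, and 10.53 in *Bcl11a*-/- GMPs and 10.48 in WT GMPs, and was 1.96-fold lower. *Psmb9* (beta1i) had signals of 8.99 in *Bcl11a*-/- MPPs and 9.89 in WT MPPs, and 11.60 in *Bcl11a*-/- GMPs and 11.39 in WT GMPs, and was 1.87-fold lower. All 3 stood in the order *Bcl11a*-/- MPPs, WT MPPs, then both GMP arrays, and in GMPs the genotypes differed by -0.12, 0.06 and 0.21 for *Psmb10*, *Psmb8* and *Psmb9*. *Psmb8* and *Psmb9* lie next to each other with only *Tap1* between them, a gene for one chain of the peptide transporter, and *Tap1*, chosen after its values were seen, had signals of 8.69 in *Bcl11a*-/- MPPs and 8.45 in WT MPPs, and 9.52 in *Bcl11a*-/- GMPs and 9.26 in WT GMPs. Its difference of 0.24 in MPPs ran the other way from those of its neighbors.

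Set against the constitutive subunit that each replaces, the immunoproteasome subunits showed no shared direction in the genotype comparison. Between *Bcl11a*-/- and WT MPPs, the difference of *Psmb8* minus that of *Psmb5* was -0.71, that of *Psmb9* minus *Psmb6* was 0.43, and that of *Psmb10* minus *Psmb7* was -0.15. Between MPPs and GMPs of WT mice the same values were -0.28, -1.30 and 0.49 in the order beta5, beta1 and beta2. The beta1 pair thus parted the most between populations, since *Psmb9* was 2.82-fold lower in WT MPPs than in WT GMPs and *Psmb6* 1.15-fold lower.

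**Figure D3:**
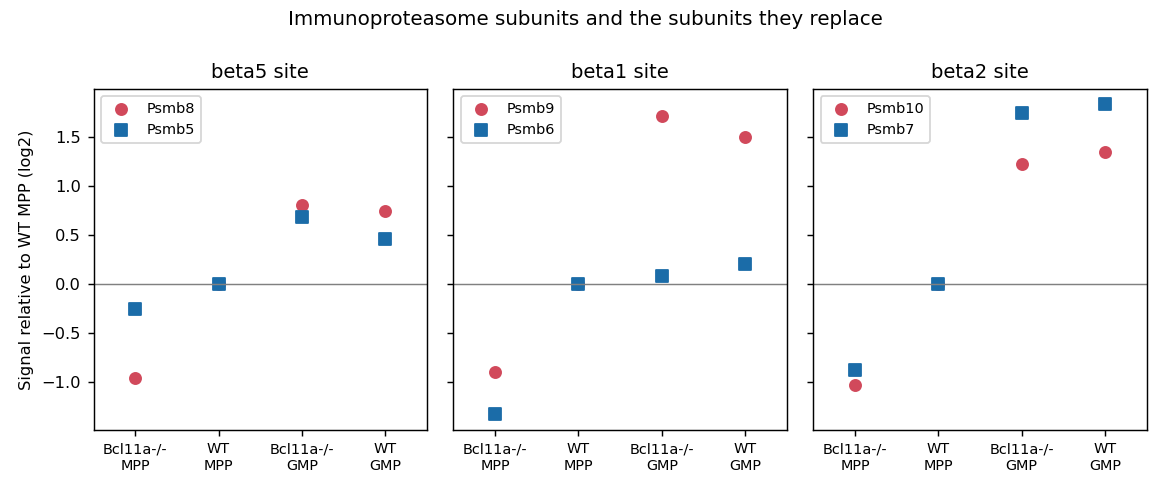
Log2 signal relative to WT MPPs (y axis) of each immunoproteasome subunit (circles) and the constitutive subunit it replaces (squares) on the 4 arrays (x axis), 1 array each, for the beta5, beta1 and beta2 sites. *Psmb9* is higher in both GMP arrays than in WT MPPs while *Psmb6* stays close to its WT MPP value there, and *Psmb10* and *Psmb7* lie on the same side of it on every array.

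Promoter sequences are shown for genes at both ends of the MPP comparison, since genes of 1 complex often share promoter elements. They are from RefSeq (GRCm38.p6) and cover the 120 bases before the annotated start, given 5′ to 3′ on the strand of the gene. *Psmb3* (chr11:97703314-97703433, plus strand) had the largest difference. *Psmb5* (chr14:54617996-54618115, minus strand) and *Psmb6* (chr11:70525237-70525356, plus strand) are catalytic subunits that differed by -0.26 and -1.33. *Psme4* (chr11:30771655-30771774, plus strand), an activator described below, was 0.12 higher in *Bcl11a*-/- MPPs. Capitals mark the matches of the search that follows, CCAAT in *Psmb3*, TGACNNNGC in *Psmb5* and *Psmb6*, and CCGGAAG in *Psme4*.
Psmb3: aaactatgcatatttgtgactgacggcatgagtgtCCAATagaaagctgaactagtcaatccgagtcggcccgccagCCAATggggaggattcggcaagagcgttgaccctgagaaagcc
Psmb5: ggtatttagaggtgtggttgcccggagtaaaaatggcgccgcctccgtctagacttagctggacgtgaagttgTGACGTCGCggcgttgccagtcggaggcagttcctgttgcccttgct
Psmb6: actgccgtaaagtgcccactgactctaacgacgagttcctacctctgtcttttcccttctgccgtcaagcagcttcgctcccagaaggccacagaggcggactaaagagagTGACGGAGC
Psme4: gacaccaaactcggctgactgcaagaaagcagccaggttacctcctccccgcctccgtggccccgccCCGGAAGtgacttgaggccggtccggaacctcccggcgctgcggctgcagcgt

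Motifs were searched on both strands of the RefSeq promoters of 42 of the 50 genes, from 250 bases before to 50 bases after the start, and in those of 17491 protein-coding genes. TGACNNNGC, the core of the antioxidant response element that Nfe2l1 and Nfe2l2 bind, was present in 6 of the 42 (14.3%) and in 14.8% of all. The 6 were *Psmb5*, *Psmb6*, *Psmc6*, *Psmd9*, *Psmd12* and *Psme4*, at 47 bases before the start in *Psmb5*, 9 bases before it in *Psmb6*, and 7 bases before it in *Psme4*, where the match runs past the start. CCAAT was present in 16 (38.1%) and in 42.3% of all, with 8 of the 15 core and immunoproteasome promoters among them. In *Psmb3* it occurred 85 and 43 bases before the start. A match describes the letters of the window and does not show a bound factor. CCGGAAG, a site of the form that ETS factors bind, was present in 16 of the 42 (38.1%) and in 12.9% of all. It was found in 9 of the 14 regulatory particle promoters (64.3%) and in 6 of the 13 promoters of activators, chaperones and genes named after a subunit (46.2%). Among the 15 core and immunoproteasome promoters, 1 held it (6.67%), that of *Psma6*. The median difference in MPPs was -0.44 for the 16 genes with CCGGAAG and -0.88 for those without it. Most core genes, whose differences were the lowest, are among those without it, so this split is also one by part. Within the regulatory particle the medians were -0.48 with it and -0.73 without it. With and without TGACNNNGC the medians over the 42 were -0.27 and -0.77, and for CCAAT both were -0.76. A tie between a motif and the difference was not tested. The core of the interferon-stimulated response element, GAAA on both sides of any pair of bases, was present in 5 (11.9%) and in 3.94% of all, among them *Psmb3* and *Psme1* and none of the 3 immunoproteasome genes. TTCNNNGAA, the core of the gamma-activated site, was present in 3 (7.14%), among them *Psmb8*, and in 8.92% of all. AAGATGGC, a YY1 site, was present in 3 (7.14%) and in 3.57% of all. The palindromic site of nuclear respiratory factor 1 was present in 2 (4.76%) and in 1.47% of all. Of the 50 genes, 4 had several promoter windows, and a gene was counted where any of its windows held the motif. Of the 46 windows, 0 held overlapping matches of different motifs, and 1, that of *Psmd14*, held overlapping matches of CCAAT on both strands.

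The 6 ATPases form the ring that unfolds substrates, and they ranged widely. *Psmc2* (Rpt1) had signals of 7.37 in *Bcl11a*-/- MPPs and 8.89 in WT MPPs, and 9.07 in *Bcl11a*-/- GMPs and 8.86 in WT GMPs, and was 2.86-fold lower in *Bcl11a*-/- MPPs than in WT MPPs. *Psmc3* (Rpt5) had signals of 8.01 in *Bcl11a*-/- MPPs and 9.18 in WT MPPs, and 9.39 in *Bcl11a*-/- GMPs and 9.37 in WT GMPs, and was 2.26-fold lower. In both, *Bcl11a*-/- MPPs alone stood apart. *Psmc4* (Rpt3) had signals of 7.44 in *Bcl11a*-/- MPPs and 8.24 in WT MPPs, and 8.93 in *Bcl11a*-/- GMPs and 9.03 in WT GMPs, a difference of -0.80 in MPPs, and *Psmc5* (Rpt6) and *Psmc1* (Rpt2) differed by -0.73 and -0.48. *Psmc6* (Rpt4) had signals of 8.68 in *Bcl11a*-/- MPPs and 8.72 in WT MPPs, and 8.92 in *Bcl11a*-/- GMPs and 9.24 in WT GMPs. Its MPP arrays differed by only -0.05, less than its GMP arrays (-0.31).

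Of the 11 other subunits of the regulatory particle, 1 was over 2-fold lower, set beside 2.02% of all genes. Among genes with a signal of at least 8 the share was 6.78%, so this count does not set these subunits apart. *Psmd13* (Rpn9), a scaffold of the lid, had signals of 6.69 in *Bcl11a*-/- MPPs and 8.36 in WT MPPs, and 8.62 in *Bcl11a*-/- GMPs and 8.91 in WT GMPs, and was 3.19-fold lower in *Bcl11a*-/- MPPs. The other 10 lay between -0.79 for *Psmd1* (Rpn2) and -0.29 for *Psmd12* (Rpn5), all below 0. *Psmd12* had signals of 8.87 in *Bcl11a*-/- MPPs and 9.16 in WT MPPs, and 9.64 in *Bcl11a*-/- GMPs and 9.63 in WT GMPs. *Psmd14* (Rpn11), the enzyme that cuts ubiquitin chains off substrates, had signals of 8.43 in *Bcl11a*-/- MPPs and 9.10 in WT MPPs, and 9.49 in *Bcl11a*-/- GMPs and 9.71 in WT GMPs, a difference of -0.68 in MPPs. *Psmd7* (Rpn8), which pairs with Rpn11, had signals of 8.17 in *Bcl11a*-/- MPPs and 8.62 in WT MPPs, and 9.50 in *Bcl11a*-/- GMPs and 9.26 in WT GMPs, and differed by -0.45 in MPPs and 0.24 in GMPs, the highest GMP difference of the regulatory particle. In these 3 genes both MPP arrays lay under both GMP arrays. *Psmd6* (Rpn7) had signals of 8.97 in *Bcl11a*-/- MPPs and 9.33 in WT MPPs, and 10.15 in *Bcl11a*-/- GMPs and 10.24 in WT GMPs, a difference of -0.36 in MPPs. The ubiquitin receptor gene *Psmd4* (Rpn10) differed by -0.50 in MPPs, the scaffold *Psmd2* (Rpn1) by -0.58, and the lid genes *Psmd3*, *Psmd8* and *Psmd11* by -0.73, -0.67 and -0.41.

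The activators split by kind. *Psme1* and *Psme2* encode the alpha and beta subunits of PA28, an interferon-inducible cap that opens the core without ATP, and both were past 2-fold. *Psme2* had signals of 9.12 in *Bcl11a*-/- MPPs and 10.42 in WT MPPs, and 10.44 in *Bcl11a*-/- GMPs and 10.61 in WT GMPs, and was 2.46-fold lower in *Bcl11a*-/- MPPs than in WT MPPs. *Psme1* had signals of 10.004 in *Bcl11a*-/- MPPs and 11.11 in WT MPPs, and 11.43 in *Bcl11a*-/- GMPs and 11.41 in WT GMPs, and was 2.16-fold lower. These genes lie next to each other with only *Emc9* between them. A further probe set carries the symbols of both *Psme2* and *Psme2b* and was left out of the set. It had signals of 8.01 in *Bcl11a*-/- MPPs and 9.50 in WT MPPs, and 9.03 in *Bcl11a*-/- GMPs and 9.52 in WT GMPs.

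The other activators and the inhibitor had MPP differences near 0. *Psme3*, the nuclear relative PA28gamma, had signals of 9.72 in *Bcl11a*-/- MPPs and 9.80 in WT MPPs, and 9.81 in *Bcl11a*-/- GMPs and 9.79 in WT GMPs, with a difference of -0.08 in MPPs. *Psme4*, the nuclear activator PA200, had signals of 7.82 in *Bcl11a*-/- MPPs and 7.70 in WT MPPs, and 7.88 in *Bcl11a*-/- GMPs and 8.14 in WT GMPs, and was one of the 2 genes that were higher in *Bcl11a*-/- MPPs (0.12). *Psmf1*, the inhibitor PI31, had signals of 7.24 in *Bcl11a*-/- MPPs and 7.33 in WT MPPs, and 8.24 in *Bcl11a*-/- GMPs and 8.18 in WT GMPs. Its MPP arrays differed by -0.08, and both lay well under both GMP arrays.

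Among the assembly chaperones, *Psmd10* (gankyrin), which helps to build the base of the regulatory particle, had signals of 5.93 in *Bcl11a*-/- MPPs and 6.99 in WT MPPs, and 7.69 in *Bcl11a*-/- GMPs and 8.08 in WT GMPs, and was 2.07-fold lower in *Bcl11a*-/- MPPs. *Psmd9* (p27), of the same pathway, had signals of 6.61 in *Bcl11a*-/- MPPs and 7.48 in WT MPPs, and 7.88 in *Bcl11a*-/- GMPs and 7.90 in WT GMPs, a difference of -0.87 in MPPs. *Psmd5*, a further base chaperone, had signals of 6.23 in *Bcl11a*-/- MPPs and 6.11 in WT MPPs, and 7.35 in *Bcl11a*-/- GMPs and 7.09 in WT GMPs, and was the other gene that was higher in *Bcl11a*-/- MPPs (0.12). *Psmg1* to *Psmg4* encode chaperones of the core particle. *Psmg3* had signals of 7.99 in *Bcl11a*-/- MPPs and 8.91 in WT MPPs, and 9.35 in *Bcl11a*-/- GMPs and 9.38 in WT GMPs, a difference of -0.92, and *Psmg2* had signals of 7.86 in *Bcl11a*-/- MPPs and 8.46 in WT MPPs, and 9.26 in *Bcl11a*-/- GMPs and 9.15 in WT GMPs, a difference of -0.60. *Psmg1* and *Psmg4* differed by -0.21 and -0.12. The set also holds *Psmc3ip*, a cofactor of meiotic recombination, and *Psme3ip1*, a partner of PA28gamma, which are named after a subunit only and differed by -0.74 and -0.38 in MPPs.

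For 5 genes the array holds more than 1 probe set under the same symbol, and these did not all read alike. One probe set of each gene is numbered among genes of the gene's own chromosome and the others among genes of another chromosome, so they may read near-identical copies, and which copy gave a signal is uncertain. *Psmb3* had signals of 5.83 in *Bcl11a*-/- MPPs and 9.24 in WT MPPs with the probe set numbered in its own place (10.6-fold lower), and 8.10 in *Bcl11a*-/- MPPs and 10.60 in WT MPPs with the other (5.66-fold lower). For *Psma3* the differences in MPPs were -1.37 with its own probe set and -1.66 and -1.93 with the others, and for *Psma5* they were -1.59 and -1.60. The probe sets disagreed on size for *Psmc1*, at -0.19 with its own and -0.76 with the other, and for *Psmd2*, at -0.23 and -0.93. With the own probe sets alone, 16 of the 50 genes were over 2-fold lower in MPPs, the same number as with the mean of the probe sets.

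Between populations, most of the proteasome genes were lower in MPPs than in GMPs, in WT mice to a smaller extent. These comparisons share their arrays with those between genotypes and are not independent of them. In WT mice, 6 of the 50 genes were over 2-fold lower in MPPs, set beside 2.8% of all genes, and 0 were over 2-fold higher, set beside 1.33%. Among genes with a signal of at least 8 on either array, 6 of 45 were over 2-fold lower, set beside 9.68% of all such genes. That share is near, so the WT count does not set the proteasome genes apart from genes of like signal. The 6 were *Psmb7* (3.57-fold), *Psmb9* (2.82-fold), *Psmb10* (2.55-fold), *Psma5* (2.41-fold), *Psmd10* (2.13-fold) and *Psmb2* (2.09-fold). Of the 3 immunoproteasome genes, 2 are among them, and *Psmb8* was 1.68-fold lower. The difference was below 0 for 43 of the 50 genes and 42.8% of all genes, and its median was -0.43 over the 50 and 0.06 over all. With the arrays quantile normalized anew, the median over the 50 was -0.24.

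In *Bcl11a*-/- mice, 30 of the 50 genes were over 2-fold lower in MPPs than in GMPs, set beside 5.82% of all genes, and 0 were over 2-fold higher, set beside 2.36%. All 50 differences were below 0, as were 40.4% of those of all genes, with a median of -1.24 over the 50 and 0.10 over all. With the arrays quantile normalized anew, the median over the 50 was -0.82. The most extreme were *Psmb3* (13.8-fold lower), *Psma5* (7.21-fold), *Psmb7* (6.19-fold), *Psmb9* (6.12-fold) and *Psma4* (5.90-fold). The immunoproteasome had all 3 genes past 2-fold, the core rings 12 of 16, the chaperones 5 of 7, the activators and inhibitor 3 of 5 and the regulatory particle 7 of 17. The smallest differences were -0.0047 for *Psmb11*, -0.06 for *Psme4*, -0.09 for *Psme3* and -0.10 for *Psmg4*.

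**Figure D4:**
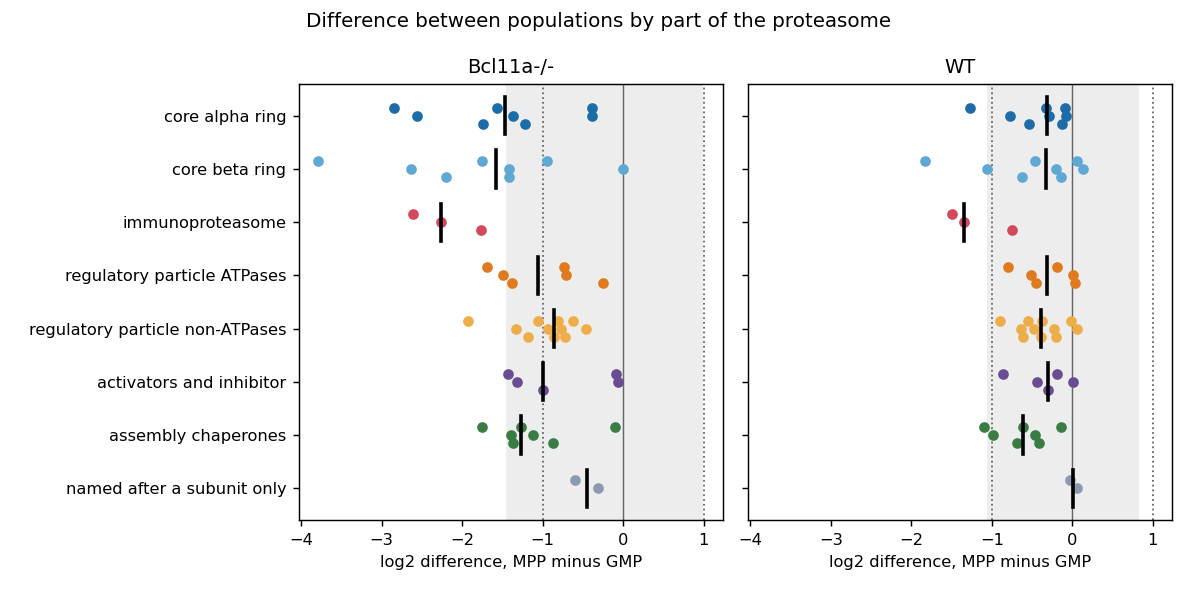
Log2 difference, MPP minus GMP (x axis), of each proteasome gene (points) in *Bcl11a*-/- mice (left) and WT mice (right) by part of the proteasome (y axis), with black bars for medians, dotted lines at 2-fold and a grey band over the central 95% of all genes (-1.44 to 0.98 in *Bcl11a*-/- mice, -1.05 to 0.81 in WT mice). In *Bcl11a*-/- mice 30 points lie past 2-fold lower and in WT mice 6, set beside 5.82% and 2.8% of all genes.

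Across the 4 arrays, most of the genes held one order. The signal was lowest in *Bcl11a*-/- MPPs for 47 of the 50 genes, and for 24.3% of all genes. The exceptions were *Psmb11*, with all 4 signals under 5, *Psme4* and *Psmd5*. Both MPP arrays lay below both GMP arrays for 39 of the 50, and for 21.6% of all genes, and both lay above for none, when they did so for 33.7% of all genes. For 37 of the 50, and for 14.6% of all genes, *Bcl11a*-/- MPPs were lowest, WT MPPs next and both GMP arrays higher. The median signal of the 50 genes was 8.43 in *Bcl11a*-/- MPPs and 9.16 in WT MPPs, and 9.50 in *Bcl11a*-/- GMPs and 9.61 in WT GMPs.

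The proteasome genes have high signals, and genes with high signals were lower in *Bcl11a*-/- MPPs more often than others. The SD of the signals of an array was 2.10 in *Bcl11a*-/- MPPs and 2.21 in WT MPPs, and 2.28 in *Bcl11a*-/- GMPs and 2.30 in WT GMPs. Among genes with a signal of at least 8 on either array of a comparison, 6.78% were over 2-fold lower in *Bcl11a*-/- MPPs than in WT MPPs, beside 15 of the 42 proteasome genes with such a signal. In GMPs the share was 0.282%, beside 0 of 45 proteasome genes. Between MPPs and GMPs the shares were 20.8% in *Bcl11a*-/- mice, beside 27 of 43 proteasome genes, and 9.68% in WT mice, beside 6 of 45. Likewise *Bcl11a*-/- MPPs were the lowest array for 50.4% of genes with a signal of at least 8 on any array. Binned by the mean signal of both MPP arrays, all genes between 8 and 9 had a median difference of -0.07 and the 18 proteasome genes there -0.73. Between 9 and 10 the medians were -0.13 for all genes and -0.78 for 18 proteasome genes, and from 10 up they were -0.20 for all genes and -1.20 for 4 proteasome genes. In each of these bins the proteasome genes had the lower median. After each difference was centred on a lowess curve of signal, 14 of the 50 genes were over 2-fold lower in *Bcl11a*-/- MPPs, set beside 1.94% of all genes. *Psmb10* (-0.93) and *Psme1* (-0.97) were no longer past the threshold. With the MPP arrays quantile normalized anew, 12 of the 50 were past it, set beside 1.7% of all genes. *Psma7* (-0.89), *Psmb6* (-0.98), *Psmb10* (-0.86) and *Psme1* (-0.73) then fell short of it.

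**Figure D5:**
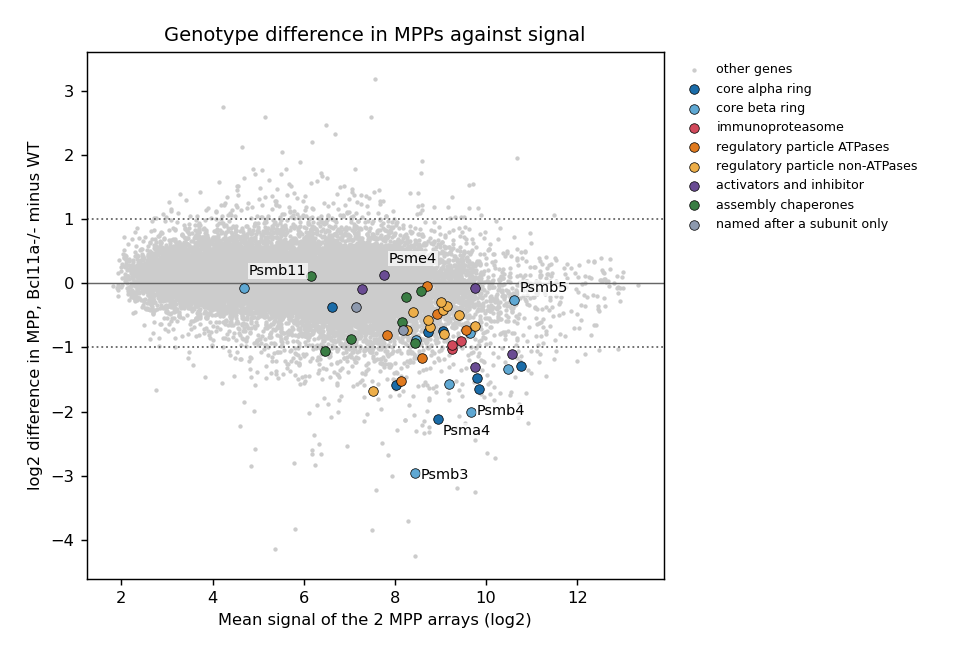
Log2 difference in MPPs, *Bcl11a*-/- minus WT (y axis), against the mean log2 signal of the 2 MPP arrays (x axis) for the proteasome genes (colored by part) and all other genes (grey), with dotted lines at 2-fold. The proteasome genes lie mostly between 8 and 11 on the x axis. From 8 up, 14 of the 40 proteasome genes are over 2-fold lower, set beside 5.72% of all genes from 8 up.

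Over the 50 genes, the MPP difference had a Spearman correlation of -0.41 with the mean signal of the 4 arrays, which includes the arrays of the difference, and of 0.24 with the genomic span of the gene. Within the 19 core and immunoproteasome genes the correlations were -0.16 with signal and 0.07 with span, and within the 17 genes of the regulatory particle 0.39 and 0.13. The median span of the 50 genes was 11930 bp, set beside 19734 bp for 3052 protein-coding genes with a mean signal of at least 8. In these 3052 genes the MPP difference had a correlation of -0.16 with signal and 0.28 with span. Over 18562 protein-coding genes of any signal the correlations were -0.27 and 0.02. The genes share the same arrays, so these correlations are descriptions.

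Other genes of the pathway had medians nearer to 0. Of 15 measured partners of the proteasome, 2 were over 2-fold lower in *Bcl11a*-/- MPPs than in WT MPPs and 0 higher, set beside 2.02% of all genes lower and 0.908% higher, with a median of 0.00. *Rad23b*, a shuttle that carries ubiquitinated proteins to the proteasome, had signals of 8.49 in *Bcl11a*-/- MPPs and 9.53 in WT MPPs, and 9.29 in *Bcl11a*-/- GMPs and 9.39 in WT GMPs. *Zfand2a*, a stress-induced protein that binds the regulatory particle, had signals of 6.57 in *Bcl11a*-/- MPPs and 7.58 in WT MPPs, and 8.53 in *Bcl11a*-/- GMPs and 8.57 in WT GMPs. Of the other partners, *Sem1*, a small subunit of the lid that is not named as the others are, had signals of 10.44 in *Bcl11a*-/- MPPs and 11.34 in WT MPPs, and 11.64 in *Bcl11a*-/- GMPs and 11.85 in WT GMPs, a difference of -0.90 in MPPs. *Pomp*, the maturation factor of the core, differed by -0.46, and the shuttles *Ubqln2* and *Ubqln4* by 0.57 and 0.53, the other way.

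None of the 8 measured genes that control proteasome genes or act beside them was past 2-fold in MPPs, where 2.02% of all genes were lower and 0.908% higher. At these shares a list of 8 genes would hold few or no such genes, so this count does not set the list apart. The median of the 8 was -0.25. *Sqstm1*, a ubiquitin-binding receptor of autophagy and a target of Nfe2l2, had signals of 8.31 in *Bcl11a*-/- MPPs and 7.67 in WT MPPs, and 8.50 in *Bcl11a*-/- GMPs and 8.42 in WT GMPs, a difference of 0.64. *Nfe2l2*, *Keap1* and *Ufd1* differed by -0.42, 0.36 and -0.35. *Nfe2l1*, which induces proteasome genes when the proteasome is inhibited, was chosen after its values were seen and had signals of 8.07 in *Bcl11a*-/- MPPs and 8.29 in WT MPPs, and 8.46 in *Bcl11a*-/- GMPs and 8.38 in WT GMPs. The E1 enzyme gene *Uba6*, the 1 measured gene of a list of ubiquitin and E1 genes, differed by 0.43.

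Downstream of the proteasome, 0 of 8 peptidases (median -0.23), 0 of 10 genes of MHC class I presentation (median -0.23) and 0 of 12 interferon-stimulated genes (median 0.10) were past 2-fold in MPPs in either direction. At the shares over all genes, of 2.02% lower and 0.908% higher, lists of this size would hold few or no such genes, so these counts do not set the lists apart. Among the peptidases, *Blmh*, *Erap1*, *Nln* and *Nrd1* had the largest differences, of -0.57, -0.46, -0.37 and -0.34. In the presentation list, *Tap2*, the second chain of the peptide transporter, had signals of 6.97 in *Bcl11a*-/- MPPs and 7.87 in WT MPPs, and 7.68 in *Bcl11a*-/- GMPs and 7.61 in WT GMPs, a difference of -0.90, and *Irf1*, *Tapbp* and *Calr* differed by -0.44, 0.44 and -0.37. Among the interferon-stimulated genes *Mx1*, *Irf9*, *Gbp3* and *Oasl2* differed by 0.73, -0.61, -0.50 and 0.50. In GMPs no gene of these lists was past 2-fold between the genotypes, set beside 0.281% of all genes lower and 0.361% higher. At these shares too, lists of this size would hold few or no such genes.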

How the data were processed

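Donor-derived MPPs and GMPs were sorted from fetal liver chimeras, and RNA of each of the 4 pools was amplified, labeled with biotin and hybridized to 1 one-color array. The authors summarised probes by RMA with quantile normalization and deposited log2 signals, 1 per probe set and array. The software version and the genome build of the array annotation are not given in the sources used here. Quantile normalization is meant to bring the arrays to like distributions, so a change in total mRNA per cell may not show. The deposited signals, with controls left out, still differed in spread. Their SD was 2.10 in *Bcl11a*-/- MPPs and 2.21 in WT MPPs, and 2.28 in *Bcl11a*-/- GMPs and 2.30 in WT GMPs.

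The table holds 30177 rows. Of these, 1324 without annotation, which head the array's numbering, were treated as normalization controls and left 28853 probe sets. Platform annotation gives 1 symbol to 21789 of these, several to 1621 and none to 5443. Probe sets of 1 symbol were averaged to 19938 genes. Every member symbol was found in the RefSeq gene table of assembly GRCm38.p6, which was also used for chromosomes, spans and neighbors, and promoters came from RefSeq of the same assembly. For each comparison the log2 difference was taken per gene and genes past 2-fold, the threshold of the study, were counted. With 1 array per condition no test was run. The number of arrays limits the precision.

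The members, the gene lists and the alternatives were chosen with earlier results of these data known, and the lists support nothing by their choice. Lists were the parts of the proteasome, its partners, regulators of its genes, ubiquitin and E1 genes, peptidases, MHC class I presentation, interferon-stimulated genes and markers of MPPs, GMPs and 7 other lineages. Named with all 4 signals were members past 2-fold in any comparison, the catalytic subunits, activators and inhibitor, members nearest to 2-fold, and the extremes of each part. Outside the marker lists, other genes named were those past 2-fold between genotypes and up to 4 more per list with the largest difference. Marker genes past 2-fold were not all named. Of the 9 measured B lineage genes, 8 were over 2-fold lower in *Bcl11a*-/- MPPs than in WT MPPs, set beside 2.02% of all genes. The marker lists of T, megakaryocyte, late neutrophil, monocyte and dendritic cells averaged 5.08, 5.97, 11.00, 6.97 and 6.76 in *Bcl11a*-/- MPPs and 4.77, 5.46, 10.64, 7.79 and 7.38 in WT MPPs.

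Alternatives were anew quantile normalization, centring on the median or on a lowess curve (span 0.3), a floor at 5, filters at 6 and 8, probe sets in place of genes, the brightest probe set, probe sets with several symbols, thresholds of 1.5-fold and 3-fold, own-chromosome probe sets and the set without *Psmc3ip* and *Psme3ip1*. Counting and lowess steps were tested on simulated arrays. Python 3.11.15, pandas 2.3.3, numpy 2.4.6, scipy 1.17.1, statsmodels 0.14.6 and matplotlib 3.10.9 were used.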

Additional observations from a re-analysis of the deposited data

Results flagged for a closer look

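Of the 16 proteasome genes that were over 2-fold lower in *Bcl11a*-/- MPPs than in WT MPPs, 5 had the opposite sign in GMPs, so that the single array pair of each population differed in the opposite direction. Over all genes past 2-fold lower in MPPs, 38.3% had a difference above 0 in GMPs, so 5 of 16 is no larger a share. The log2 differences, *Bcl11a*-/- minus WT, were -2.95 in MPPs and 0.21 in GMPs for *Psmb3*, -2.01 and 0.05 for *Psmb4*, -1.52 and 0.21 for *Psmc2*, -1.17 and 0.02 for *Psmc3*, and -1.11 and 0.02 for *Psme1*. All 5 GMP differences were small, and with 1 array per condition the difference between the populations was not tested. No group held enough arrays to look for a sample far from the others.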

How the results depend on the processing

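The number of proteasome genes over 2-fold lower in *Bcl11a*-/- MPPs than in WT MPPs was 16 and stayed between 12 and 20 under the alternatives that kept the 2-fold threshold. It was 12 of 50 with the arrays quantile normalized anew (1.7% of all genes) and 14 of 50 with lowess centring (1.94%). With centring on the median it was 17 of 50 (2.33%), and over probe sets 20 of 56 (2.46% of all probe sets with 1 symbol). Only the threshold itself moved counts by more than 1.5 times. At 1.5-fold it gave 32 genes in this comparison (6.86% of all genes) and 6 at 3-fold (0.481%). Between MPPs and GMPs the lower count was 13 at 3-fold in *Bcl11a*-/- mice (1.87%), and in WT mice it was 17 at 1.5-fold (7.97%) and 1 at 3-fold (0.652%). No proteasome gene was past 2-fold in GMPs between the genotypes, or higher past 2-fold in any comparison, under any alternative run. At the shares of all genes given above for these counts, 50 genes would hold few or no such genes. The median difference of the proteasome genes ran between -0.80 and -0.63 in MPPs, -0.09 and -0.02 in GMPs, -1.34 and -0.82 for MPPs minus GMPs in *Bcl11a*-/- mice and -0.49 and -0.24 in WT mice. In all 4 comparisons the value nearest to 0 came with the arrays quantile normalized anew, and it moved the median by over 1.5 times in GMPs (-0.02) and in the comparisons of MPPs with GMPs (-0.82 in *Bcl11a*-/- mice and -0.24 in WT mice). Lowess centring also moved the GMP median by over 1.5 times (-0.05). Of the alternatives, the filter at 8, the own-chromosome probe sets and the set without *Psmc3ip* and *Psme3ip1* were added after seeing the data. No paired analysis was possible because the labels carry no replicate numbers and each condition has 1 array. For the same reason no array could be left out, and neither the spread between mice nor a batch can be told apart from the condition.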
